A study of Homo sapiens with 6 samples.

Results

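The genes that hold epithelial cells together and give them an apical and a basal side were followed in SW480 cells, an established line from a human colorectal adenocarcinoma. The cells, of genotype WT in the labels, received MPM-1, a fluorescent probe that locates to mitochondria and is called WT4 in the sample names, or its solvent DMSO for 24 h. There were 3 libraries per treatment, and the dose of MPM-1 in this experiment is not given in the sources used here. The members were every gene whose symbol begins with CLDN and a digit, together with a named set of junction, polarity and epithelial-mesenchymal transition (EMT) genes. In all, 47 of the 12982 genes of the table were members, namely 8 of adherens junctions with EPCAM, 16 of tight junctions, 9 of desmosomes, 7 of polarity complexes, 4 epithelial regulators and 3 mesenchymal genes. The named genes NECTIN3 and FN1 were not analysed here.

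In an epithelial sheet, cadherins join neighbouring cells at adherens junctions and are tied to actin by catenins, while nectins do the same through afadin. Tight junctions seal the space between cells with claudins, occludin and related membrane proteins on a scaffold of zonula occludens proteins, and claudins differ in that some close the path between cells and others open it to ions. Desmosomes anchor keratin filaments, and the Par, Crumbs and Scribble complexes set the apical and basolateral sides. In EMT, factors such as SNAI1 and ZEB1 repress junction genes by binding E-box letters in their promoters, and mesenchymal genes such as VIM, which encodes vimentin, come on.

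Depth was 32095456 to 40269820 counts in the DMSO libraries and 31733667 to 35403841 in the MPM-1 libraries. No gene of the table had fewer than 115 counts over the 6 libraries. Levels of a gene across libraries are given as CPM (counts per 1e6 after TMM scaling), and levels of different genes are compared in the authors' FPKM, which divides by transcript length. Colon epithelial markers had 10 of 11 genes in the table, and their summed level was 4846 to 5565 FPKM in DMSO and 6726 to 7188 FPKM after MPM-1. In that list KRT8, KRT18 and KRT19 rose, while KRT20, CDX1, CDX2, VIL1, CDH17 and LGR5 fell and EPCAM was not called. Fibroblast markers had 2 of 9 genes (COL1A1 and PDGFRB, together under 1 FPKM in every library), immune markers 2 of 8 (CD14 and CD68, summed 36.9 to 50.4 FPKM in DMSO and 70.8 to 74.7 FPKM after MPM-1) and endothelial markers 0 of 5. In bulk RNA, a change in the number of cells of a kind and a change in RNA per cell cannot be told apart.

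After MPM-1, 22 of the 47 members rose (46.8%), 9 fell (19.1%) and 16 were not called, at an adjusted p-value under 0.05 in edgeR's quasi-likelihood test (Benjamini-Hochberg over all genes). Among all genes tested, 56.5% were called by this rule, 27.7% higher and 28.8% lower. Members were thus higher more often, and lower less often, than the table at large, a difference that was given no test. Their median log2 fold change, MPM-1 minus DMSO, was 0.21, beside -0.026 over all genes. At an adjusted p-value under 0.01 with a change of at least 2-fold, 4 members rose (CTNNA1, OCLN, CLDN12 and ESRP1) and 3 fell (CLDN2, CLDN23 and OVOL1), where 5.58% and 8.75% of all genes did and 14.3% did in either direction. In 20 members every MPM-1 library lay above every DMSO library and in 10 every MPM-1 library lay below, against 31.0% and 33.3% of all genes, or 64.3% in either direction. Scaling by library size alone, which shifted the median of all genes to -0.18, gave 16 higher and 13 lower members. By that scaling 2589 of the 12982 genes were higher and 4871 lower. Limma on log2(FPKM + 0.1), where the median of all genes was -0.15, gave 15 higher and 11 lower members. Of the 11497 genes in that fit, 2245 were higher and 3988 lower. Its filter at a mean of 1 FPKM left out VIM and GRHL2.

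By group, the median log2 fold change was 0.44 for the 8 adherens junction members, 0.34 for the 9 desmosomal members and 0.38 for the 7 polarity members. It was -0.14 for the 16 tight junction members, -0.29 for the 4 epithelial regulators and 0.10 for the 3 mesenchymal members. Without DMSO replicate 2 the tight junction median was -0.032, without MPM-1 replicate 2 the regulator median was -0.094, and without MPM-1 replicate 1 the mesenchymal median was -0.10. In counts, 5 of 8 adherens genes rose and 0 fell, 5 of 9 desmosomal genes rose and 2 fell, 5 of 7 polarity genes rose and 2 fell, and 6 of 16 tight junction genes rose and 4 fell. None of the 3 mesenchymal genes was called by edgeR's test, whose smallest adjusted p-value among them was 0.0721, for ZEB1. The mesenchymal list is too short for its median to be set firmly against the others, and the difference between the lists was not tested.

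**Figure D1:**
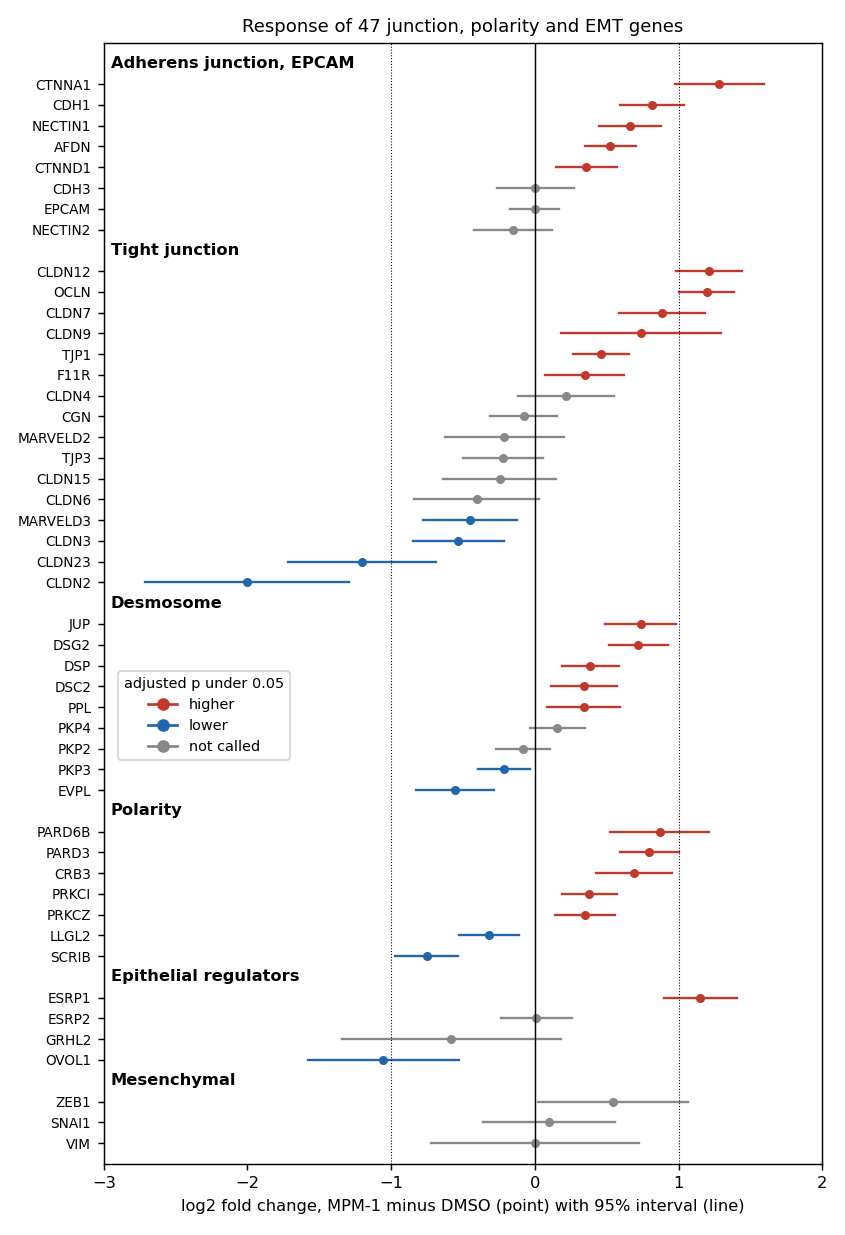
Fitted log2 fold change (MPM-1 minus DMSO, x axis) of the 47 members, grouped by role, with points for the estimate and lines for its 95% interval; red and blue mark genes higher and lower at an adjusted p-value under 0.05 and grey those not called. The dotted lines stand at a log2 fold change of -1 and 1, and the points run from -2.01 for CLDN2 to 1.28 for CTNNA1.

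The promoters of the members were read for the E-box letters CAGGTG, on either strand, in the 250 bases before each RefSeq start site (GRCh38.p14). Windows were found for 25 members, some with several start sites, and 12 of the 25 genes (48.0%) held the letters in at least 1 window, beside 20.6% of the 27305 gene symbols with a window. Counted by window, 15 of 47 held them (31.9%), beside 17.5% of all 35116 windows. Among windows of at least 60% G and C the shares were 38.2% of 34 and 19.0% of 16148. Of the 12 members with the letters, 10 rose (AFDN, CLDN7, CRB3, DSC2, DSG2, DSP, JUP, OCLN, PRKCZ and TJP1), 0 fell, and TJP3 and ZEB1 were not called. Of the 13 without them, 3 rose (CLDN12, CTNNA1 and PRKCI), 2 fell (CLDN2 and CLDN3) and 8 were not called. Of the 9 members that fell, only CLDN2 and CLDN3 had a window, so few falls could appear on either side. MARVELD3, CLDN23, PKP3, EVPL, LLGL2, SCRIB and OVOL1 fell and had none. CDH1, CTNND1, NECTIN1, F11R, CLDN9, PPL, PARD3, PARD6B and ESRP1 rose and had none. The median log2 fold change was 0.53 with the letters and -0.08 without. Genes with several windows had more chances of a match, which the split did not take into account. With the letters, ZEB1 had 7 windows, PRKCZ and TJP1 had 4 each and the others 1 or 2. Without them, CTNNA1 had 4 windows and the others 1 or 2. Over all genes tested with a window, 32.1% of 2037 genes with the letters and 27.2% of 7561 without were higher, with medians of 0.02 and -0.04. The split by call was made after the values were seen and was given no test, and a match of letters is not a bound site. The letters CCGGTT, a core of the motif of Grainyhead-like factors such as GRHL2, stood in 6 of the 47 member windows (12.8%). They stood in 5.99% of all windows, and no share was taken among windows rich in G and C. The longer AACCGGTT stood in 0 of the member windows and in 0.117% of all windows.

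**Figure D2:**
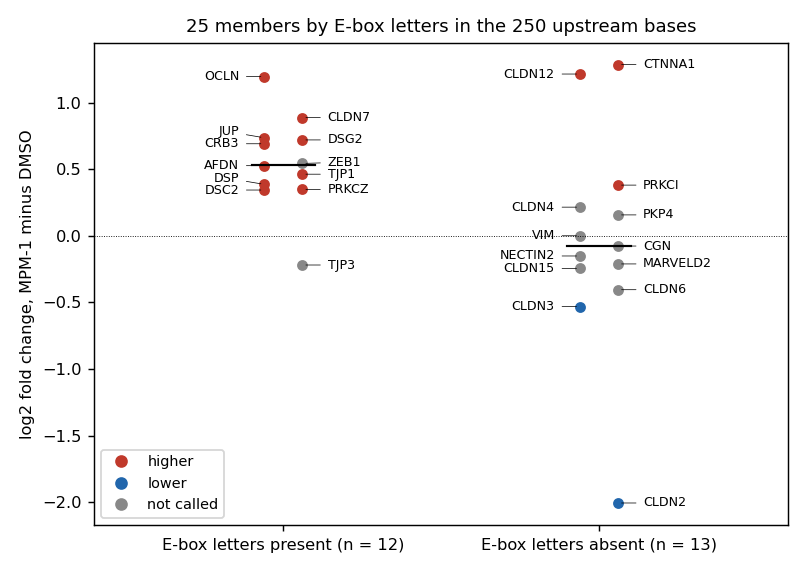
Log2 fold change (MPM-1 minus DMSO, y axis) of the 25 members with a promoter window, split by whether the E-box letters stand in any of their windows, with 1 point per gene coloured by its call and a bar at the median. The 12 genes with the letters have a median of 0.53 and only TJP3 is below 0, while the 13 without have a median of -0.08.

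The windows below show how densely the letters can stand in a gene that rose, and a claudin that fell without them. They were picked as examples. PRKCZ and TJP1 have 4 windows each, and the 1 with the most matches is printed. Another PRKCZ window holds 1 match, and the remaining windows of both genes hold none. CTNNA1, CLDN12 and PRKCI rose without the letters in any window and are not printed. AFDN (chr6:167827385-167827634, plus strand) holds 4 matches, PRKCZ (chr1:2050161-2050410, plus strand) 3 and TJP1 (chr15:29969050-29969299, minus strand) 1, while CLDN3 (chr7:73770271-73770520, minus strand) holds none. No exon of GENCODE 29 lies in any of these windows. Each is printed along its gene's strand, 5′ to 3′, with the E-box letters in capitals, CAGGTG or its reverse complement CACCTG.
AFDN: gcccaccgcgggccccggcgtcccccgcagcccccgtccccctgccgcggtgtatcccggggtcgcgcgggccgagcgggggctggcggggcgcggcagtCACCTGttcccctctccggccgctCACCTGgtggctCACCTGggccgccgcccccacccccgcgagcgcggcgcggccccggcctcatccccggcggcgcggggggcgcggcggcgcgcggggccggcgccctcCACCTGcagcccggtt
PRKCZ: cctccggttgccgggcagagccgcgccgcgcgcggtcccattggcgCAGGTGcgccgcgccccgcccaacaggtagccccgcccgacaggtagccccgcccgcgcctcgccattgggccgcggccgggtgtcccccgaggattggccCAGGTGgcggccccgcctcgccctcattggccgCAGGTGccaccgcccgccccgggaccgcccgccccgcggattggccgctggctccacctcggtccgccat
TJP1: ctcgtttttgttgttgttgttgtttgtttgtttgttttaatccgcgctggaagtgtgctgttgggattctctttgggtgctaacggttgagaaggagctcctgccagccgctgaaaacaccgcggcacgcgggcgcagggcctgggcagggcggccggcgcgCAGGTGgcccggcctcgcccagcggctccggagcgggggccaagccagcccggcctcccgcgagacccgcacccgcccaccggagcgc
CLDN3: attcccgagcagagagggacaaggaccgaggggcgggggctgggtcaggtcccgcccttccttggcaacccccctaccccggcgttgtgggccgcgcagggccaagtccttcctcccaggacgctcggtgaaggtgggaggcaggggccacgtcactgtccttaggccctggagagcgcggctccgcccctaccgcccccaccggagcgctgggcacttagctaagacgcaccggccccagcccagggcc
In AFDN the matches began 150, 126, 114 and 16 bases before the start site, in PRKCZ 204, 103 and 70 bases, and in TJP1 88 bases.

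In adherens junctions, both the cadherin and its catenins rose. CDH1 (ENSG00000039068, GRCh38 chromosome 16, 68737225 to 68835548) encodes E-cadherin, the main cadherin of epithelia. It had 129, 119 and 112 CPM in the DMSO libraries and 229, 183 and 221 CPM after MPM-1. The groups did not overlap, and the lowest MPM-1 library was well above the highest DMSO library. The log2 fold change was 0.82 (standard error, SE, of 0.10, edgeR adjusted p = 0.000124), or 1.76-fold, and omitting any single library gave 0.77 to 0.93. CDH1 shares 347 exon bases with the antisense gene AC099314.1.

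CTNNA1 (ENSG00000044115, chromosome 5, 138610967 to 138935034) encodes alpha-catenin, which links the cadherin complex to actin. It had 23.2, 22.6 and 19.6 CPM in DMSO and 65.2, 47.1 and 47.1 CPM after MPM-1. Its groups were far apart, with MPM-1 replicate 1 the highest, and its log2 fold change of 1.28 (SE 0.14, edgeR adjusted p = 5.65e-05) was the highest of all members. CTNNA1 shares 445 exon bases with LRRTM2 on the opposite strand. AFDN, which encodes the nectin-binding afadin, rose from 44.6 ± 2.07 to 64.2 ± 3.4 CPM (SD, n = 3 each), a log2 difference of 0.53. NECTIN1, a nectin, rose by 0.66, from 19.6 ± 1.13 to 31.1 ± 1.62 CPM. CTNND1, the p120 catenin that stabilises cadherin at the membrane, rose by 0.36 (adjusted p = 0.00952), but its adjusted p-value was 0.144 with limma on log2(FPKM + 0.1) and 0.0594 with scaling by library size alone. On its own strand it shares 321 exon bases with TMX2-CTNND1 and 289 with AP001931.1.

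The other members of this group stayed near 0. CDH3, the gene of P-cadherin, had a log2 fold change of 0.00 (95% interval -0.26 to 0.27), NECTIN2 of -0.15 (-0.43 to 0.12) and EPCAM of -0.00 (-0.17 to 0.17). EPCAM, an adhesion molecule of epithelial cells, was the highest of the members per length at 400 ± 22 FPKM in DMSO and 360 ± 11.2 FPKM after MPM-1 (SD, n = 3). These intervals leave little room for a change in EPCAM on the TMM scale, and somewhat more in NECTIN2, which was called lower with scaling by library size alone (log2 fold change -0.30).

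**Figure D3:**
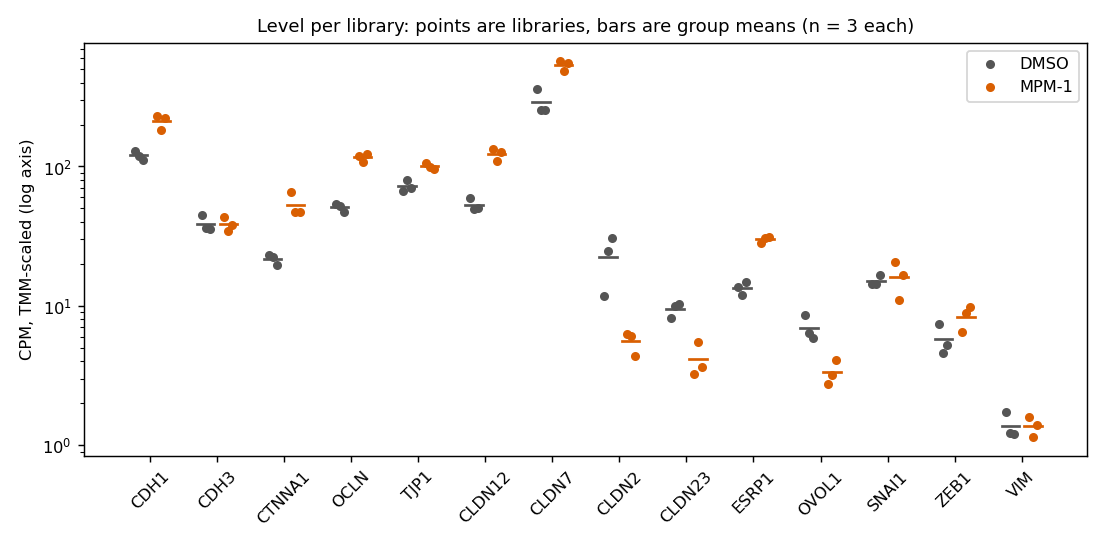
CPM (log axis) in each of the 6 libraries for the members that changed at least 2-fold and for CDH1, CDH3, TJP1, CLDN7, SNAI1, ZEB1 and VIM, with 1 point per library and a bar at each treatment's mean. The MPM-1 points of CTNNA1, OCLN, CLDN12, ESRP1, CDH1, CLDN7 and TJP1 lie above all DMSO points, those of CLDN2, CLDN23 and OVOL1 lie below, and those of CDH3, SNAI1, ZEB1 and VIM overlap.

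Among the tight junction members other than claudins, 3 of 7 rose and 1 fell. OCLN (ENSG00000197822, chromosome 5, 69492292 to 69558104), the gene of occludin, had 53.5, 52.0 and 47.2 CPM in DMSO and 118, 108 and 124 CPM after MPM-1. The groups did not overlap, and the log2 fold change was 1.19 (SE 0.09, edgeR adjusted p = 5.35e-06). TJP1 (ENSG00000104067, chromosome 15, 29699367 to 29968865), which encodes the scaffold protein ZO-1, had 67.1, 80.3 and 70.4 CPM in DMSO and 105, 99.3 and 95.6 CPM after MPM-1. The groups did not overlap and the log2 fold change was 0.46 (SE 0.09, edgeR adjusted p = 0.00156), though limma on log2(FPKM + 0.1) gave an adjusted p-value of 0.0545. F11R, the junctional adhesion molecule JAM-A, rose by 0.35 (adjusted p = 0.0349) with overlapping groups, and omitting any of 4 libraries (DMSO replicate 2 or 3, MPM-1 replicate 1 or 3) ended its call. It also shares 1853 exon bases with AL591806.3 on its own strand.

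Of the occludin relatives with a MARVEL domain, neither member rose. MARVELD2, the gene of tricellulin at the corners where cells meet, had a log2 fold change of -0.21 (95% interval -0.62 to 0.20). MARVELD3 fell by 0.45 on the log2 scale (adjusted p = 0.0245), from 11.1 ± 0.0536 to 8.11 ± 0.712 CPM (SD, n = 3), and was no longer called without DMSO replicate 2 or 3 or MPM-1 replicate 1. It shares 1068 exon bases with PHLPP2 on the opposite strand, and whether the counting used strand is not given in the sources used here. TJP3, the gene of the related scaffold ZO-3, had a log2 fold change of -0.22 (-0.50 to 0.06) and CGN, which encodes the scaffold-bound cingulin, of -0.08 (-0.31 to 0.16), so neither was called, though TJP3 was called lower with scaling by library size alone (-0.37).

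The 9 claudins split evenly, with 3 higher (33.3%), 3 lower (33.3%) and 3 not called. These shares are near those of all genes, 27.7% higher and 28.8% lower. CLDN12 (ENSG00000157224, chromosome 7, 90383721 to 90513402) had 59.0, 49.8 and 50.4 CPM in DMSO and 133, 109 and 127 CPM after MPM-1, a log2 fold change of 1.21 (SE 0.10, edgeR adjusted p = 1.35e-05). The groups were clearly apart, and CLDN12 shares 347 exon bases with GTPBP10 on the same strand, so that counting could have divided reads between them. CLDN7 rose from 289 ± 59.1 to 534 ± 45.1 CPM (SD, n = 3 each), a log2 difference of 0.89 (adjusted p = 0.0004). It shares 269 exon bases with AC003688.1 on its own strand and 38 with ELP5 on the opposite strand. CLDN9, a low claudin at 1.78 FPKM in DMSO, rose by 0.74 (adjusted p = 0.0284) and lost its call without any of 4 libraries (DMSO replicate 2 or 3, MPM-1 replicate 1 or 3).

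CLDN2 (ENSG00000165376, chromosome X, 106900164 to 106930861), known for its pore for cations, had the largest fall of the members. It had 11.8, 24.6 and 30.9 CPM in DMSO and 6.24, 6.11 and 4.41 CPM after MPM-1. DMSO replicate 1 was the lowest of its group by far, yet it was still above each MPM-1 library. The log2 fold change was -2.01 (SE 0.32, edgeR adjusted p = 0.000541), between -2.31 and -1.70 when single libraries were omitted. CLDN23 had 8.25, 9.93 and 10.4 CPM in DMSO and 3.25, 5.53 and 3.63 CPM after MPM-1, so the groups did not overlap, and its log2 fold change was -1.20 (SE 0.23, edgeR adjusted p = 0.00161). CLDN3 fell by 0.53 on the log2 scale (adjusted p = 0.00951), from 84.8 ± 18.5 to 58.6 ± 4.87 CPM.

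The remaining claudins were not called. CLDN4, the highest claudin per length at 302 ± 76.4 FPKM in DMSO, had a log2 fold change of 0.21 (-0.12 to 0.55), and without DMSO replicate 1, its highest DMSO library, it was called higher at 0.39 (adjusted p = 0.0285). CLDN15 had -0.25 (-0.64 to 0.14), and CLDN6 had -0.41 (-0.84 to 0.03) with groups that did not overlap. CLDN6 was called lower in 4 alternatives (adjusted p of 0.0192 to 0.0302), namely scaling by library size alone and the 3 fits on FPKM, and CLDN15 in 2 of those fits.

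As shares of the summed claudin FPKM, CLDN4 made up 49.4% ± 3.04 (SD, n = 3) in DMSO and 43.5% ± 5.18 after MPM-1, and its groups overlapped. CLDN7 went from 32.5% ± 1.44 to 44.5% ± 4.60 and CLDN12 from 2.56% ± 0.31 to 4.30% ± 0.545. CLDN3 went from 11.2% ± 0.0738 to 5.68% ± 0.578 and CLDN2 from 1.39% ± 0.79 to 0.237% ± 0.0628. In CLDN7, CLDN12, CLDN3 and CLDN2 the shares of the treatments did not overlap. The summed claudin level itself overlapped, at 518 to 746 FPKM in DMSO and 689 to 826 FPKM after MPM-1.

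**Figure D4:**
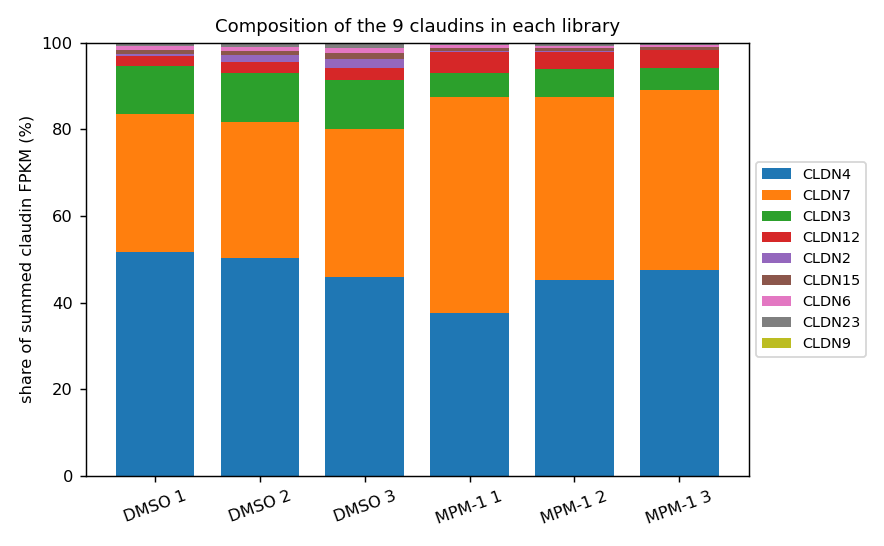
Share of the summed claudin FPKM (y axis, percent) taken by each claudin in the 6 libraries, 1 stacked bar per library. The CLDN7 share is 31.5% to 34.1% in the DMSO libraries and 41.3% to 49.7% in the MPM-1 libraries, and the CLDN3 share 11.1% to 11.2% and 5.26% to 6.34%.

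Several members that lie side by side in the genome differed in their response. CDH1 and CDH3 stand 14608 bases apart on chromosome 16, on the same strand, and the ratio of their FPKM was 2.71 ± 0.577 in DMSO and 4.14 ± 0.679 after MPM-1 (SD, n = 3 each). OCLN and MARVELD2, 47961 bases apart on chromosome 5, had a ratio of 2.46 ± 0.507 and then 6.22 ± 0.932. In both pairs every MPM-1 library had a higher ratio than every DMSO library. CLDN4 and CLDN3, 29271 bases apart on chromosome 7 and on opposite strands, had ratios of 4.43 ± 0.298 and 7.71 ± 1.18. CLDN9 and CLDN6, only 206 bases apart on chromosome 16, had ratios of 0.321 ± 0.0667 and 0.702 ± 0.126. In these claudin pairs too the ratios did not overlap between treatments.

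With the paralogs ESRP1 and ESRP2 this made 5 ratios, each with p = 0.1 in a two-sided exact permutation test, the smallest that 3 libraries against 3 can give, and 0.1 after Benjamini-Hochberg adjustment over the 5. The pairs were chosen after their values were seen. CLDN6 shares 40 exon bases with TNFRSF12A, a gene on the opposite strand.

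**Figure D5:**
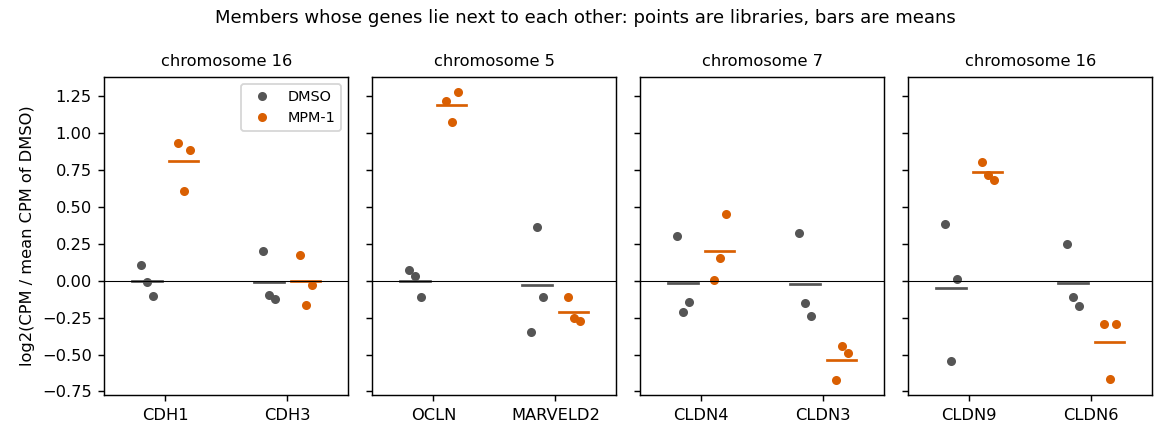
Level of each gene of the 4 neighbouring pairs in the 6 libraries, as log2 of CPM over the gene's mean CPM in DMSO (y axis), with 1 point per library and a bar at each treatment's mean. CDH1, OCLN and CLDN9 have all MPM-1 points above their DMSO points, CLDN3 and CLDN6 have all below, and CDH3, MARVELD2 and CLDN4 overlap.

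Of the 9 desmosomal members 5 rose, 2 fell and 2 were not called, and none reached 2-fold. JUP, the gene of plakoglobin, rose from 225 ± 31.2 to 375 ± 34.9 CPM (SD, n = 3 each), a log2 difference of 0.74 (edgeR adjusted p = 0.000393). The desmosomal cadherin gene DSG2 rose from 177 ± 7.77 to 292 ± 32.1 CPM, by 0.72 (adjusted p = 0.000149). DSP, which encodes desmoplakin, the link to keratin, rose by 0.39, from 133 ± 9.47 to 174 ± 14.3 CPM. In these 3 genes the treatments did not overlap.

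DSC2, the other desmosomal cadherin measured, rose by 0.34 (adjusted p = 0.0166) and PPL, the plakin periplakin, by 0.34 (adjusted p = 0.0284), with overlap between treatments in PPL. Scaling by library size alone gave an adjusted p-value of 0.121 for DSC2 and 0.144 for PPL, and leaving out DMSO replicate 3 or MPM-1 replicate 3 also ended both calls, as DMSO replicate 2 or MPM-1 replicate 1 did for PPL. EVPL, the related envoplakin, went the other way, from 27.6 ± 3.93 to 18.8 ± 0.855 CPM, a fall of 0.56 on the log2 scale (adjusted p = 0.00334).

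The plakophilins, armadillo proteins of the desmosomal plaque, moved little. PKP3 was called lower with a log2 fold change of -0.21 (adjusted p = 0.0458), a call lost in 8 alternatives, among them DESeq2's test (adjusted p = 0.0675) and the replicate number as a block (0.0753). PKP2 had a log2 fold change of -0.08 (95% interval -0.27 to 0.11) and PKP4 of 0.16 (-0.04 to 0.35). PKP2 was called lower with scaling by library size alone, at -0.23.

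All 7 polarity members were called, and they divided by complex. The Par and Crumbs members, which mark the apical side, rose in 5 of 5 cases, and LLGL2 and SCRIB, which belong to the basolateral Scribble module, both fell. PARD6B went from 90.3 ± 8.42 to 165 ± 38.5 CPM (SD, n = 3 each), a log2 difference of 0.87. PARD3 went from 33.2 ± 0.375 to 57.6 ± 5.81 CPM, a log2 difference of 0.80 (edgeR adjusted p = 7.8e-05). CRB3 went from 26.5 ± 2.04 to 42.8 ± 6.2 CPM, a log2 difference of 0.69. In PARD6B the MPM-1 libraries were 126, 166 and 202 CPM, the widest spread of the polarity genes, and all were above DMSO.

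The atypical protein kinase C genes PRKCI and PRKCZ, the kinases of the Par complex, rose by 0.38 and 0.35. Limma on log2(FPKM + 0.1) gave adjusted p-values of 0.0719 and 0.124 for them, and PRKCZ shares 590 exon bases with FAAP20 on the opposite strand. SCRIB had 52.5, 49.5 and 44.3 CPM in DMSO and 26.6, 31.0 and 29.3 CPM after MPM-1, a log2 fold change of -0.75 (adjusted p = 0.00017). LLGL2 fell by 0.32 (adjusted p = 0.0164), and without MPM-1 replicate 1 its adjusted p-value was 0.0688. The division between apical and basolateral genes was noticed in the values and was not tested.

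Among the epithelial regulators, the splicing regulator ESRP1 rose and its paralog did not. ESRP1 (ENSG00000104413) had 13.8, 11.9 and 14.8 CPM in DMSO and 28.1, 30.5 and 31.3 CPM after MPM-1, a log2 fold change of 1.15 (SE 0.11, edgeR adjusted p = 3.31e-05). The groups were far apart and tight. ESRP2, which shares 149 exon bases with NFATC3 on the opposite strand, had a log2 fold change of 0.01 (95% interval -0.24 to 0.26), and the ratio of ESRP1 to ESRP2 FPKM went from 0.551 ± 0.0402 to 1.36 ± 0.196 (SD, n = 3). ESRP1 was thus the lower of the pair per length in DMSO and the higher after MPM-1.

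OVOL1, a zinc finger repressor that favours the epithelial state, had 8.64, 6.39 and 5.90 CPM in DMSO and 2.76, 3.22 and 4.08 CPM after MPM-1. The groups did not overlap, and the log2 fold change was -1.05 (SE 0.23, edgeR adjusted p = 0.00377), between -1.21 and -0.87 when single libraries were omitted. OVOL1 shares 1044 exon bases with the antisense gene AP001266.1. GRHL2, a Grainyhead-like factor of epithelia, was the lowest member per length in DMSO at 0.595 FPKM, and its log2 fold change of -0.58 had an interval of -1.34 to 0.18.

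None of the mesenchymal members was called by edgeR's test, and VIM and ZEB1 were under 1 FPKM in DMSO. VIM (ENSG00000026025, chromosome 10, 17228259 to 17237593) had 1.73, 1.23 and 1.21 CPM in DMSO and 1.61, 1.14 and 1.40 CPM after MPM-1, which were 57, 53 and 48 counts and 49, 35 and 47 counts. The treatments overlapped fully, the log2 fold change was -0.00, and its interval of -0.72 to 0.72 does not exclude a change of up to that size either way. VIM shares 641 exon bases with the antisense gene VIM-AS1. SNAI1, the gene of Snail, had 14.3, 14.3 and 16.5 CPM in DMSO and 20.6, 11.1 and 16.6 CPM after MPM-1, with MPM-1 libraries on both sides of DMSO and a log2 fold change of 0.10 (-0.36 to 0.56).

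ZEB1 (ENSG00000148516, chromosome 10, 31318495 to 31529814) had 7.43, 4.63 and 5.22 CPM in DMSO and 6.5, 8.84 and 9.77 CPM after MPM-1. DMSO replicate 1 was above MPM-1 replicate 1, so the treatments overlapped, and the log2 fold change of 0.54 (0.02 to 1.07) had an adjusted p-value of 0.0721 with edgeR's test. ZEB1 was called higher by DESeq2's test (adjusted p = 0.0397), and by edgeR's test at 0.77 without DMSO replicate 1 and at 0.71 without MPM-1 replicate 1.

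Per length, vimentin stood at 0.708 ± 0.177 FPKM in DMSO and 0.593 ± 0.0436 FPKM after MPM-1, while CDH1 stood at 25.1 ± 1.46 and 39.7 ± 3.91 FPKM (SD, n = 3 each). ZEB1 was at 0.933 FPKM in DMSO and SNAI1 at 9.11 FPKM. Among the genes of the EMT marker proteins that the study blotted, 6 of 9 were in the table. In these, CDH1, TJP1 and CTNNB1 (beta-catenin, log2 fold change 0.28, adjusted p = 0.0122) rose and VIM, SNAI1 and ZEB1 were not called by edgeR's test, ZEB1 being called higher by DESeq2's as given above. The other 3, CLDN1, CDH2 and SNAI2, were not analysed here. In blots of SW480 and other lines, the paper reports less beta-catenin, vimentin, Snail and ZEB1 after MPM-1. It reports more E-cadherin and ZO-1. Those are protein levels, and the RNA of beta-catenin here went the other way, by 1.21-fold. Omitting any single library gave it a log2 fold change of 0.23 to 0.35, with an edgeR adjusted p of up to 0.046.

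Further genes of the same structures, from lists of general knowledge, were counted beside the members, with 27.7% of all genes higher and 28.8% lower by the same rule. Of 11 other adherens junction genes, 7 rose and 3 fell. The receptor phosphatase PTPRM was highest at a log2 fold change of 2.05 and CDH11 next at 1.36. Both were low in DMSO, PTPRM at 0.347 FPKM and CDH11 at 0.135 FPKM with 24, 22 and 17 counts. PTPRF had -0.61 and the intestinal cadherin CDH17 -0.47. Of 14 other tight junction genes, 5 rose and 0 fell, led by the Crumbs complex scaffold PATJ (1.14) and ARHGEF2 (0.91). MARVELD1, a further MARVEL-domain gene of that list named after its values were seen, rose from 36.1 ± 6.99 to 67.1 ± 4.74 CPM (SD, n = 3), a log2 difference of 0.89 (edgeR adjusted p = 0.000381). Of 16 other polarity genes, 5 rose (31.2%) and 4 fell (25%), shares near those of all genes, with PARD3B at 1.08 and LIN7B at 0.54 against PARD6G at -1.41 and LLGL1 at -0.88. The calls of PARD3B and LIN7B ended without DMSO replicate 2 or 3, and that of PARD3B also without MPM-1 replicate 1, with adjusted p-values of up to 0.106 and 0.066. This list did not divide as the members did: among Par genes PARD6G fell and PARD6A was not called (-0.24), and of the partners of SCRIB and LLGL2 on the basolateral side LLGL1 fell while DLG5 rose (0.34) and DLG1 was not called (0.19). PARD6A, DLG5 and DLG1 were named after their values were seen.

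Of 15 other desmosome, hemidesmosome and laminin-332 genes listed, 9 were in the table, and all 9 rose, with a median log2 fold change of 0.93. The desmosomal genes DSG1, DSG3, DSG4, DSC1, DSC3 and PKP1 were not analysed here. The 9 thus speak mostly for hemidesmosomes and laminin-332. DST, which encodes dystonin, had the smallest rise at 0.29, and its call ended when MPM-1 replicate 1 or any single DMSO library was omitted (adjusted p of up to 0.101). LAMB3 rose from 74.9 ± 18.8 to 273 ± 35.0 CPM (SD, n = 3), a log2 difference of 1.87 (adjusted p = 1.85e-05). LAMA3 (1.71) and PLEC (1.63) also passed 2-fold. LAMA3 and LAMB3 encode chains of the laminin to which basal epithelial cells attach, PLEC encodes the keratin linker plectin, and ITGA6 (0.41), ITGB4 (0.93) and COL17A1 (0.75) encode membrane proteins of the same attachment. In each of the 9 genes the MPM-1 libraries lay above all DMSO libraries, where 31.0% of all genes did. DST, LAMA3, PLEC, ITGA6, ITGB4 and COL17A1 were named after their values were seen.

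Of 16 other mesenchymal genes, 4 rose and 7 fell, with a median log2 fold change of -0.33. The matrix gene TNC rose by 1.42. SPARC had -2.40 and TGFBI -2.23, and both were under 3 FPKM in DMSO. Of 20 other epithelial regulators, 7 rose (35.0%) and 6 fell (30.0%), again near the shares of all genes, led by the epithelial factor ELF3 (1.58) and TMC4 (1.07) on one side and by CDX2 (-2.20) and FOXA1 (-1.77) on the other. CDX2, which sets intestinal identity, went from 82.5 ± 3.51 to 17.9 ± 4.33 CPM.

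Of 6 gap junction genes, 2 rose and 3 fell. PANX1, the gene of a pannexin channel, rose by 0.45 (adjusted p = 0.0419), a call that ended without DMSO replicate 2 or 3 or MPM-1 replicate 2 or 3 (adjusted p of up to 0.136). The connexin gene GJB1 had 35, 102 and 83 counts in DMSO and 0, 4 and 0 counts after MPM-1, so that all MPM-1 libraries were below DMSO, while the size of its fitted log2 fold change of -5.33 rests on the 4 counts of MPM-1 replicate 2.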

How the data were processed

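RNA of SW480 cells treated for 24 h was sequenced in 3 DMSO and 3 MPM-1 libraries, grouped by the sample labels. The authors deposited 1 table with the whole-number count of each gene per library, without normalization, and its FPKM, scaled by the authors for length and depth. The submitters' processing notes name HISAT2, DESeq2 and the build mm10, although the identifiers in the table are human, and the counting tool and its strand setting are not given in the sources used here. The table also holds log2 fold changes and FDR values that the authors computed between treatments, which were not used. All 12127 Ensembl identifiers were in GENCODE 29, from which positions on GRCh38 were taken, and 855 genes have NewGene identifiers.

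The members and lists were chosen with earlier results of these data known. Counts were tested in R 4.3.3 with edgeR 4.0.16 (quasi-likelihood test, TMM factors from 0.93 in MPM-1 to 1.07 in DMSO libraries) on all 6 libraries without covariates, adjusted by Benjamini-Hochberg over 12982 genes. Standard errors were computed from the fold change and its F statistic. Every member is named; of each further list, the 2 largest rises and falls under an adjusted p of 0.05 are named, except a few that are not reported here. Promoters are RefSeq sequences, matched by symbol for 25 members. Alternatives were DESeq2 1.42.0 (size factors and test), library size alone, a mean of at least 50 counts, limma 3.58.1 on log2(FPKM + 0.1) with and without a filter at a mean of 1 FPKM and on log2(FPKM + 1), a replicate block, and each library left out. A fold change on the log2(FPKM + pseudocount) scale understates that of low genes. The test was tried on simulated data. Nothing in the labels says that libraries came from separate cultures, so p-values measure the spread between these libraries, which may be technical. The first principal component (72.8% of variance) separated the treatments, and libraries of a treatment differed beyond sampling noise.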

Additional observations from a re-analysis of the deposited data

How the results depend on the processing

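Of the calls on the 47 members, 46 kept direction and side of the threshold with DESeq2's size factors, 45 with its test and 37 with scaling by library size alone. With limma on log2(FPKM + 1), 1 member rose 2-fold. With scaling by library size alone the medians were 0.29 for adherens, -0.30 for tight junction and 0.23 for polarity members, and -0.06 for mesenchymal members. With limma on log2(FPKM + 0.1), log2(FPKM + 1) and log2(FPKM + 0.1) without a filter they were -0.27, -0.22 and -0.27 for tight junction, 0.18, 0.17 and 0.18 for desmosomal and 0.23, 0.21 and 0.23 for polarity members. With a mean of at least 50 counts, which removes VIM, the mesenchymal median was 0.31.

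With each library left out, members higher ranged from 18 to 24 and lower from 6 to 8, and 2-fold rises from 4 to 5 and falls from 2 to 3. The medians ranged from 0.39 to 0.52 for adherens, -0.18 to -0.032 for tight junction, 0.26 to 0.44 for desmosomal, 0.33 to 0.45 for polarity, -0.46 to -0.09 for regulator and -0.10 to 0.33 for mesenchymal members, the last being negative without MPM-1 replicate 1. The cause of these shifts was not tested.

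The labels do not say whether the replicate numbers pair the libraries. Correlations between libraries of the same number were 0.021, 0.114 and -0.074, within the range of -0.130 to 0.115 between different numbers. With 3 libraries per treatment these values cannot settle the question. With the replicate number as a block, 22 members were higher and 8 lower, and only PKP3 lost its call. VIM, GRHL2 and CLDN9 had the fewest counts of the members, and whether depth or the spread between libraries sets their intervals was not tested.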
